A study of Mus musculus with 8 samples.

Results

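The 9 genes described here, Abca1, Abca4, Abcb1a, Abcb1b, Abcb10, Abcc1, Abcc4, Abcg1 and Abcg2, encode ABC transporters of lipid and drug efflux and were taken by symbol from the 19938 genes with a probe set of their own on a mouse expression array. Each of the 9 had 1 probe set annotated to it alone. They were chosen by family with the log2 intensities of these same G-CSF and PBS arrays in view, and Abca4 and Abcg2 were singled out by name, so the differences between the groups are given as descriptions of these 8 arrays.

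The cells were hematopoietic stem cells from mouse marrow, sorted by the KSL SLAM scheme, in which they carried c-Kit, Sca-1 and CD150 and lacked lineage markers, CD48 and CD41. The G-CSF mice received granulocyte colony-stimulating factor, which spurs the marrow to make neutrophils and mobilizes stem cells to the circulation, at 125 mcg per kg under the skin 2 times a day for 36 h. The PBS mice received saline alone for 36 h. Each group had 4 arrays, each of RNA pooled from 5 to 10 mice and amplified before hybridization. The labels name no strain, sex or age.

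ABC transporters use ATP bound at a pair of nucleotide-binding domains to move substrates across membranes. Those of the A subfamily and Abcg1 mainly move lipids, whereas Abcb1a, Abcb1b, Abcg2, Abcc1 and Abcc4 pump drugs, dyes and conjugated metabolites out of cells. In bone marrow, the efflux of the dye Hoechst by Abcg2 sets apart the "side population", which is rich in stem cells.

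The annotated upstream sequences of 5 genes are shown as background to the results on those genes. The groups were apart for Abca4 and Abca1, Abcb1a and Abcb1b are neighbouring paralogs, and Abcg2 is the dye pump. Each run is the 250 bases before a RefSeq transcription start (GRCm38.p6), read 5′ to 3′ on the gene's strand. Capitals mark matches to any of 7 motifs on either strand, namely the STAT motif with the letters TTCNNNGAA, the classical promoter box GGGCGG bound by Sp1, the box TATAAA bound by TBP, the core of antioxidant response elements with the letters TGANNNNGC, the E-box with the letters CACGTG, the xenobiotic response element with the letters TTGCGTG, and the cyclic AMP response element with the letters TGACGTCA. The windows are chr3:122044210-122044459 on the + strand for Abca4, chr4:53159896-53160145 on the - strand for Abca1, chr5:8566841-8567090 and chr5:8797897-8798146 on the + strand for the paralogs, and chr6:58640296-58640545 on the + strand for the most downstream of 3 Abcg2 starts. The Abca4 window lies inside the gene as annotated, which begins at 122043891, and the Abcg2 window inside its gene, which begins at 58584491.
Abca4: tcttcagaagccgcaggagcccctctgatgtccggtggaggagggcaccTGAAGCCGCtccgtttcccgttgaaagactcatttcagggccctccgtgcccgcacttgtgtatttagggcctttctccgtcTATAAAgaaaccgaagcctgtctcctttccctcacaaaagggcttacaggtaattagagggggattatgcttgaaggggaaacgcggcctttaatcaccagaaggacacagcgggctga
Abca1: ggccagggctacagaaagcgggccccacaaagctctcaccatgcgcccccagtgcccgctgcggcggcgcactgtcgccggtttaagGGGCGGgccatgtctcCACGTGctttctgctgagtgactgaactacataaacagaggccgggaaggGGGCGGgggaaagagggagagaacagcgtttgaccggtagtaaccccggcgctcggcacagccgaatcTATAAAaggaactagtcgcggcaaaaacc
Abcb1a: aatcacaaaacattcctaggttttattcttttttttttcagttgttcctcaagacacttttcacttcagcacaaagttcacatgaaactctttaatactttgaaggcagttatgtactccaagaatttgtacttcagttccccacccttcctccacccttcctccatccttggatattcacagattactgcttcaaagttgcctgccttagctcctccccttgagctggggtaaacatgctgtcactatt
Abcb1b: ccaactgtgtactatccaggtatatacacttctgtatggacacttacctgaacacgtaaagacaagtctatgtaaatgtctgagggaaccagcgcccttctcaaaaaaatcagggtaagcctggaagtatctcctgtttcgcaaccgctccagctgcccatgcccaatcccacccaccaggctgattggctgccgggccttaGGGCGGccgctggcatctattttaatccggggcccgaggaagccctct
Abcg2: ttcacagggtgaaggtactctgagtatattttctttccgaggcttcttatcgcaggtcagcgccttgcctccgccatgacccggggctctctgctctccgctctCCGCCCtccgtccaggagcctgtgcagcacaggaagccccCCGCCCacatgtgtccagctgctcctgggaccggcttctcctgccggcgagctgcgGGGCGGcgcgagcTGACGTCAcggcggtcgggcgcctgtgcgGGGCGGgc
Of the 9 genes, 7 matched the sequence table, with 10 windows in all. The TBP box lay at -119 from the start in Abca4 and at -29 in Abca1, counted at its first base, and was in 2 of the 10 windows, against 12.4% of 32851 windows of all genes. The Sp1 box was in 5 of the 10 windows (32.7% of all windows), and the antioxidant element core in 4 of 10 (35.2%). The E-box was in 2 of the 10 windows, at Abca1 and Abcc4 (6.02% of all windows). The cyclic AMP element was in 1 of the 10, the Abcg2 window shown (1.55%). No window held the STAT letters, which 7.02% of all windows held, or those of the xenobiotic element (0.925%). The Abcb1a window matched none of the 7 motifs and had 40.4% G and C, whereas that of Abcb1b had 52.8% and an Sp1 box. The deposited values do not tell the starts of a gene apart, and a match is a run of letters, not a binding site.

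Across the 8 arrays the median log2 intensity of all genes was between 5.74 and 5.89. PBS replicate 3 stood apart, with an interquartile range of 1.68, against 2.42 to 2.80 on the other arrays, and correlations with them of 0.883 to 0.903, against 0.956 to 0.977 among the others, so values are also given without it. Of 17 stem cell markers measured, the mean log2 intensity was 8.43 to 8.61 in G-CSF arrays and 7.97 to 8.70 in PBS arrays. The gene of c-Kit, Kit, averaged 10.35 ± 0.12 after G-CSF and 10.70 ± 0.20 after PBS, and that of CD150, Slamf1, 6.78 ± 0.52 and 6.62 ± 0.55 (SD, n = 4 each). Cd48, whose protein the sort selected against, averaged 7.84 ± 0.79 after G-CSF and 7.19 ± 0.44 after PBS, and Itga2b, the gene of CD41, 7.50 ± 0.25 and 7.39 ± 0.33. Of the other surface genes looked at, Cd34 averaged 10.38 ± 0.53 after G-CSF and 9.51 ± 0.68 after PBS, Flt3 8.64 ± 0.71 and 7.84 ± 0.97, and Ptprc 9.72 ± 0.08 and 9.53 ± 0.23. No detection call was available, so absence cannot be read from these levels. The mean of 24 neutrophil markers, of 28 listed, was higher on every G-CSF array than on any PBS array. It was 10.16, 10.02, 8.27 and 8.91 on the G-CSF arrays in replicate order, against 8.13, 7.18, 7.30 and 7.19 on the PBS arrays. All 24 had a positive log2 fold change (median 1.80), and 0 passed the threshold over all genes (limma). At an unadjusted p under 0.05, 22 of the 24 were higher, against 6.07% of all genes higher and 2.94% lower. Monocyte, erythroid and megakaryocyte marker means were also highest in G-CSF replicates 1 and 2 and in PBS replicate 1 of their groups. So was the mean of 18 lymphocyte markers, of 20 listed, though PBS replicates 1 and 3 were nearly level (5.736 and 5.735). Erythroid means were 7.15, 7.17, 6.38 and 6.37 on the G-CSF arrays, against 7.58, 6.78, 6.545 and 6.70 on the PBS arrays. In pooled RNA, fewer cells of a type and less RNA per cell cannot be told apart.

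**Figure D1:**
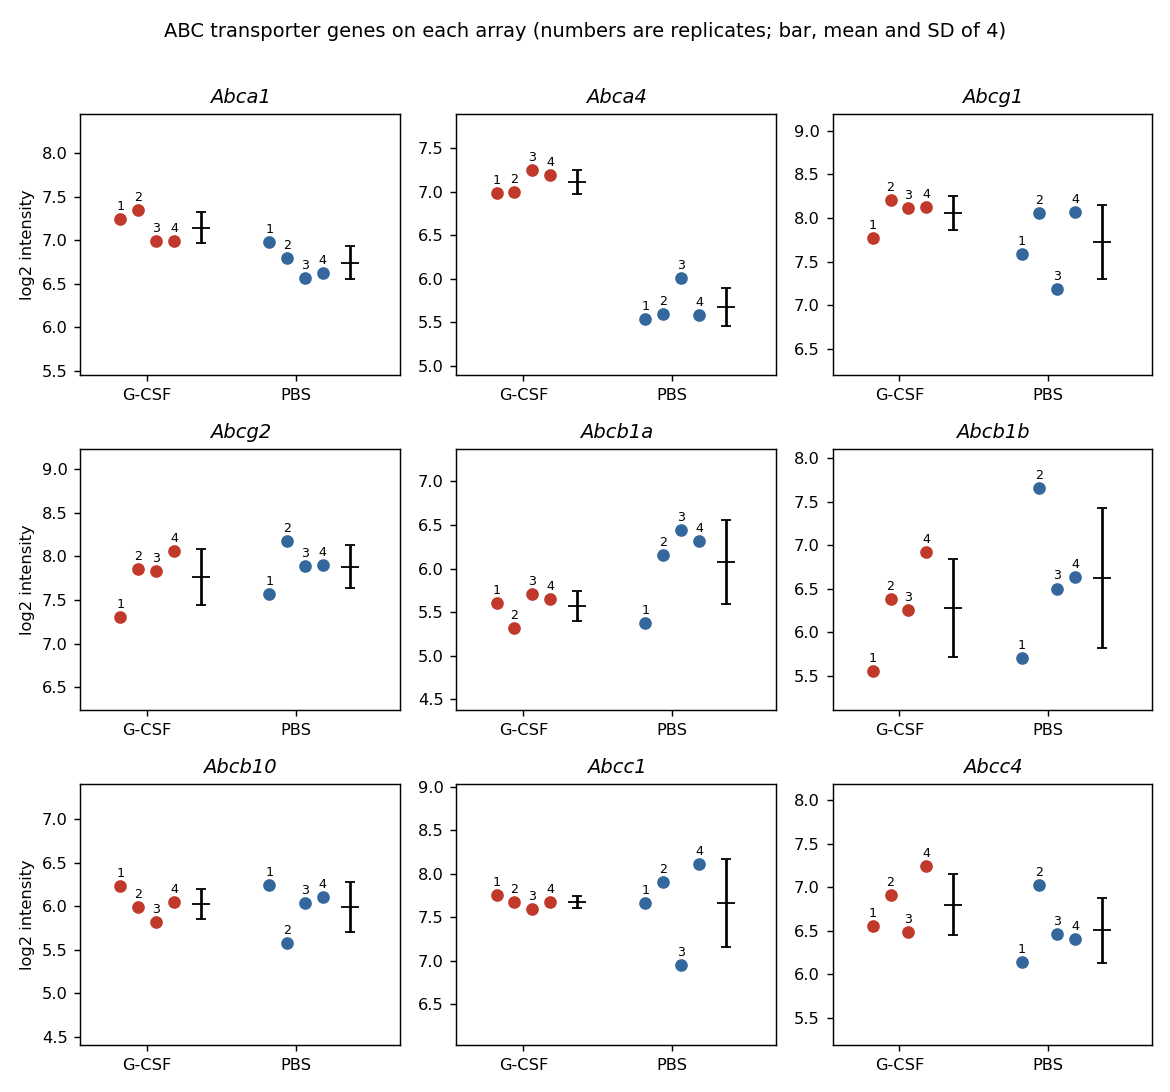
Log2 intensity of the 9 transporter genes on each array, with G-CSF left of PBS, replicate numbers beside the points, and the mean and SD of 4 arrays as a bar. Each panel spans the same log2 range but has its own level. Abca4 is between 6.98 and 7.25 in G-CSF arrays and between 5.54 and 6.01 in PBS arrays, whereas the groups overlap for all but Abca1 among the others.

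Abca4 was the 1 gene of the 9 whose groups were far apart. In the eye it moves retinoid-lipid conjugates across photoreceptor disc membranes, and its role in blood cells is less well defined. Its log2 intensity was 6.98, 7.0, 7.25 and 7.19 across G-CSF replicates 1 to 4, against 5.54, 5.60, 6.01 and 5.58 in PBS replicates 1 to 4. Every G-CSF array lay above every PBS array, and PBS replicate 3 was the highest of its group. The means were 7.11 ± 0.14 after G-CSF and 5.68 ± 0.22 after PBS (SD, n = 4 each), a log2 fold change of 1.43 ± 0.17 SE or 2.69-fold.

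In the fit over all 19938 genes, Abca4 was among the 19 genes higher after G-CSF at an adjusted p under 0.05 (0.0953% of genes tested; adjusted p = 0.0143, limma), and 0 genes were lower. It was the 1 of the 9 transporter genes called, a count that the choice of Abca4 by name fixes. The log2 fold change was 1.53 without PBS replicate 3 (adjusted p = 0.0064). Leaving out G-CSF replicate 2 ended the call (1.46, adjusted p = 0.0672), as did leaving out G-CSF replicate 4 (1.40, with an adjusted p of 0.068), and it also ended when all 35556 probe sets entered the fit (adjusted p = 0.0833), in a range of 0.00223 to 0.0833 over 19 alternatives. The 2 highest Abca4 values among the G-CSF arrays were those of replicates 3 and 4, where the neutrophil marker means were the 2 lowest of that group (8.27 and 8.91). PBS replicate 1, with the highest neutrophil mean of its group (8.13), had the lowest Abca4 value (5.54), close to PBS replicates 2 and 4 (5.60 and 5.58). PBS replicate 3, the highest of its group for Abca4 (6.01), had a neutrophil mean of 7.30, against 7.18 and 7.19 in PBS replicates 2 and 4. The part of neutrophil transcripts in the difference between the groups was not tested.

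The genes that handle retinoids around Abca4 were looked at as a list. Of 35 listed, 34 were measured and 0 passed over all genes in either direction (limma). At an unadjusted p under 0.05 (limma), 3 were higher and 3 lower, against 6.07% of all genes higher and 2.94% lower. The median log2 fold change was -0.20, against -0.07 over all genes. Of the 34, 10 were among the 9969 brighter genes by mean intensity, whose median was 0.13. The list held both directions. Dhrs4, a reductase of retinal and other carbonyls, was 7.41, 7.32, 7.04 and 7.47 in G-CSF arrays, against 6.86, 6.23, 5.75 and 6.05 in PBS arrays, 1.09 ± 0.24 SE apart on the log2 scale (adjusted p = 0.188, or 0.0472 with PBS replicate 1 left out). Dhrs3, which reduces retinal to retinol, was 8.0, 8.03, 8.06 and 8.12 in G-CSF arrays, against 7.48, 7.46, 6.59 and 6.85 in PBS arrays (0.96 ± 0.22 SE, adjusted p = 0.208). For both genes every G-CSF array was above every PBS array. Bco2, a carotenoid-cleaving enzyme, had 0.60 ± 0.22 SE (adjusted p = 0.469, limma), and Aldh1a7, of the aldehyde dehydrogenase family, had -0.64 ± 0.20 SE (adjusted p = 0.387, limma). Both were among the dimmer genes. Aldh1a7 averaged 3.44 after G-CSF and 4.08 after PBS, with its highest value in PBS replicate 3 (4.50). Groups that did not overlap were found at 3.37% of all genes with G-CSF higher and at 2.78% with G-CSF lower, and at 3 and 2 of these 34.

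Abca1 and Abcg1 export cholesterol, Abca1 to lipid-poor apolipoprotein A-I and Abcg1 to HDL particles, and both are known targets of the liver X receptors. Abca1 was 7.24, 7.34, 6.99 and 6.99 across G-CSF replicates 1 to 4, against 6.98, 6.80, 6.56 and 6.62 in PBS replicates 1 to 4. The groups did not overlap, but the lowest G-CSF value and the highest PBS value, that of replicate 1, were 6.99 and 6.98. The difference was a log2 fold change of 0.40 ± 0.17 SE (95% interval 0.02 to 0.78), or 1.32-fold, and did not pass over all genes. Without PBS replicate 3, which held the lowest value, it was 0.34 ± 0.16 SE, and the unadjusted p went from 0.0401 to 0.054 (limma). Abca1 and Abca4 were the 2 of the 9 genes with no overlap, both with G-CSF higher (3.37% of all genes), and no member had G-CSF wholly lower (2.78%). The Abca1 values were highest in G-CSF replicates 1 and 2 and, within the PBS group, in replicate 1. These were also the arrays with the highest neutrophil, monocyte, erythroid and megakaryocyte marker means of their groups. The part of those transcripts was not tested.

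Abcg1 was 7.77, 8.21, 8.11 and 8.13 in G-CSF arrays, against 7.59, 8.06, 7.18 and 8.07 in PBS arrays. The groups overlapped, and the log2 fold change was 0.33 ± 0.23 SE (95% interval -0.17 to 0.82). PBS replicate 3 held the lowest of the 8 values, and the log2 fold change was 0.15 ± 0.18 SE without it. Macrophages are known to use both transporters. Monocyte and macrophage markers, 20 measured of 22, had a mean of 7.69, 8.02, 6.72 and 7.28 on the G-CSF arrays in replicate order, against 8.004, 6.90, 6.87 and 6.69 on the PBS arrays, so the groups overlapped. Of these markers 0 passed over all genes (limma), with 4 of the 20 higher and 0 lower at an unadjusted p under 0.05, against 6.07% of all genes higher and 2.94% lower. Their part in either difference was not tested.

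**Figure D2:**
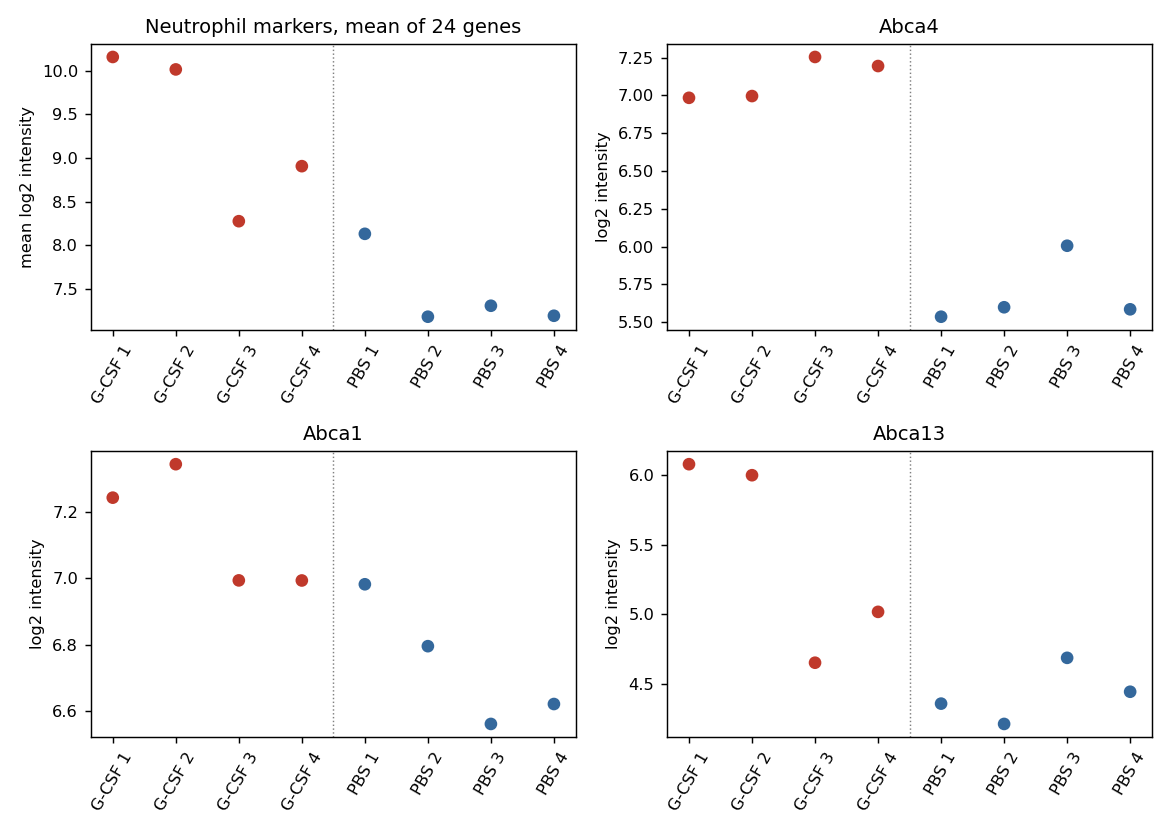
Mean log2 intensity of 24 neutrophil markers and log2 intensity of Abca4, Abca1 and Abca13 on each array, G-CSF (red) left of PBS (blue), with a scale of its own in each panel. Neutrophil markers and Abca13 are highest in G-CSF replicates 1 and 2, and Abca4 in G-CSF replicates 3 and 4.

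Of the liver X receptor and cholesterol efflux genes, 24 of 30 were measured and 0 passed (limma). At an unadjusted p under 0.05 (limma), 5 were higher and 0 lower, against 6.07% of all genes higher and 2.94% lower. The median log2 fold change was 0.12, and 17 of the 24 were among the 9969 brighter genes, whose median was 0.13. The mitochondrial cholesterol-binding protein gene Tspo was 8.47, 8.69, 8.02 and 8.42 in G-CSF arrays, against 7.72, 6.59, 6.82 and 6.98 in PBS arrays, 1.37 ± 0.25 SE apart on the log2 scale (adjusted p = 0.0852), and 1.60 apart with PBS replicate 1 left out (adjusted p = 0.0366). For Tspo and the neutrophil marker mean alike, G-CSF replicate 3 and PBS replicate 2 were lowest, the latter close to PBS replicate 4 for the markers (7.18 and 7.19). Both were highest in G-CSF replicates 1 and 2 and in PBS replicate 1, but Tspo peaked in G-CSF replicate 2 and the markers in replicate 1. Monocyte, erythroid and megakaryocyte marker means were highest in the same arrays of each group. The part of any of these markers in the Tspo difference was not tested. Npc1, which moves cholesterol out of lysosomes, had 0.57 ± 0.21 SE, Rxrb, a dimer partner of the liver X receptors, 0.63 ± 0.25 SE and the phospholipid acyltransferase Lpcat3 0.98 ± 0.40 SE, all with overlapping groups. Cholesterol synthesis and uptake genes, 22 measured of 27 with 21 among the brighter genes, had a median of 0.13, and 0 passed (limma). At an unadjusted p under 0.05 (limma), 1 was higher and 0 lower, against 6.07% of all genes higher and 2.94% lower. That 1 gene was Dhcr7, which makes cholesterol from 7-dehydrocholesterol in the last step (0.53 ± 0.21 SE). The next lowest p-values were those of the mevalonate pathway kinase Mvk (0.42 ± 0.22 SE), the sterol enzyme gene Hsd17b7 (0.51 ± 0.28 SE) and the farnesyl diphosphate synthase gene Fdps (0.36 ± 0.20 SE). These were all positive, but the list held both directions, with 12 positive and 10 negative values between -0.77 and 0.58.

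Abcg2, the breast cancer resistance protein, pumps Hoechst, many drugs and porphyrins out of cells. Its log2 intensity was 7.30, 7.86, 7.83 and 8.06 across G-CSF replicates 1 to 4, against 7.57, 8.17, 7.89 and 7.90 in PBS replicates 1 to 4. The groups overlapped, and replicate 1 was the lowest array of both. The means were 7.76 ± 0.32 after G-CSF and 7.88 ± 0.25 after PBS (SD, n = 4 each), a log2 fold change of -0.12 ± 0.21 SE. The 95% interval of -0.58 to 0.34 leaves out a 2-fold change in either direction but holds smaller changes of both signs. The sign changed in 1 of 19 alternatives, without G-CSF replicate 1 (0.03).

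Abcb1a and Abcb1b are the neighbouring mouse genes for P-glycoprotein, the pump of multidrug resistance, and only a pair of long non-coding genes lies between them in the RefSeq table. Abcb1a was 5.60, 5.31, 5.71 and 5.65 across G-CSF replicates 1 to 4, against 5.38, 6.16, 6.44 and 6.32 in PBS replicates 1 to 4. Of the PBS arrays, 3 lay above all 4 G-CSF arrays, and replicate 1 lay below 3 of them. The log2 fold change was -0.51 ± 0.24 SE (95% interval -1.03 to 0.02), with -0.74 without PBS replicate 1 and -0.38 without PBS replicate 3. It passed in none of the 18 alternatives that gave it a value, and Abcb1a was the 1 member in the dimmer part of the genes.

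Abcb1b was 5.55, 6.38, 6.26 and 6.92 in G-CSF arrays, against 5.70, 7.66, 6.50 and 6.63 in PBS arrays. It had the widest spread of the 9 genes in both groups (SD 0.56 after G-CSF and 0.80 after PBS), and replicate 1 was the lowest array of each group, as it was for Abcg2. The log2 fold change was -0.35 ± 0.39 SE (95% interval -1.20 to 0.51) and came to -0.002 without PBS replicate 2 and -0.65 without PBS replicate 1. As the probe sequences were not used here, hybridization of one paralog's transcript to the other's probes was not tested.

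**Figure D3:**
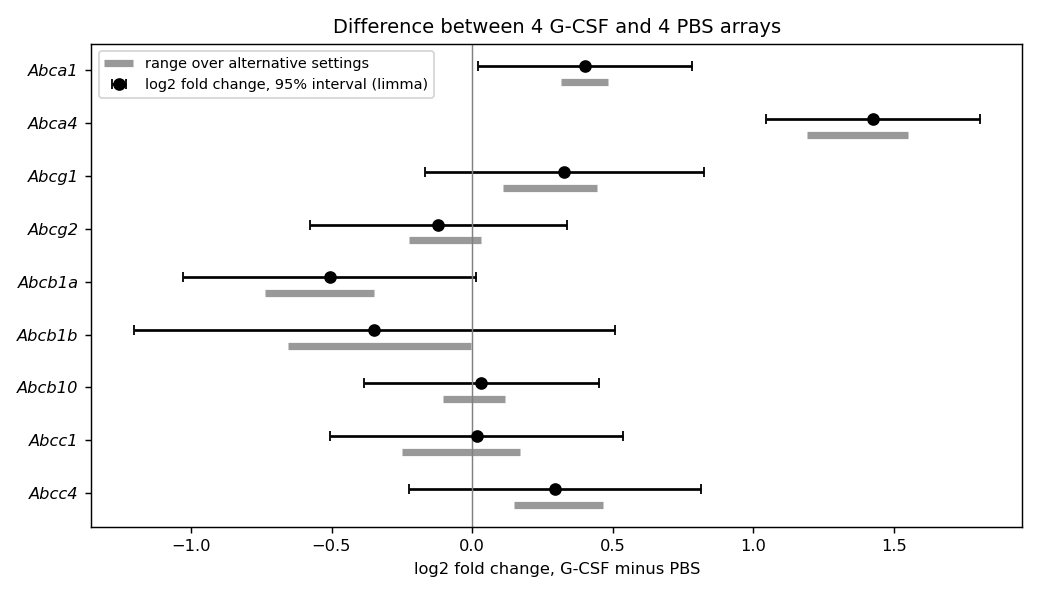
Log2 fold change, G-CSF minus PBS, of the 9 genes with its 95% interval (limma, black) and the range over the alternative settings (grey). Abca4 lies at 1.43 and Abca1 at 0.40 with intervals above 0, and the intervals of the other 7 genes include 0.

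Abcc1 exports glutathione conjugates and leukotriene C4. It was 7.76, 7.68, 7.60 and 7.68 in G-CSF arrays, against 7.66, 7.91, 6.96 and 8.12 in PBS arrays. All 4 G-CSF values lay inside the range of the PBS values, with an SD of 0.07 after G-CSF and 0.50 after PBS, and the log2 fold change was 0.02 ± 0.24 SE. It was -0.22 ± 0.15 SE without PBS replicate 3, and the sign changed in 5 of 19 alternatives. The SD was smaller after G-CSF in 8 of the 9 genes, where 73.6% of all genes had the smaller SD after G-CSF.

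Abcc4 exports cyclic nucleotides and prostaglandins. It was 6.56, 6.91, 6.49 and 7.24 in G-CSF arrays, against 6.14, 7.02, 6.46 and 6.41 in PBS arrays, a log2 fold change of 0.29 ± 0.24 SE with overlapping groups (95% interval -0.23 to 0.82). The log2 fold change was 0.15 without G-CSF replicate 4, 0.17 without PBS replicate 1 and 0.47 without PBS replicate 2.

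Conjugation and drug response genes that act with these pumps, 34 measured of 36, had a median log2 fold change of 0.10. Of the 34, 26 were among the 9969 brighter genes, whose median was 0.13. At an unadjusted p under 0.05 (limma), 4 were higher and 0 lower, against 6.07% of all genes higher and 2.94% lower. None of the 34 passed the threshold over all genes (limma). Mgst1, a membrane-bound glutathione transferase, was 8.91, 9.17, 7.91 and 8.47 in G-CSF arrays, against 7.45, 6.34, 6.62 and 6.35 in PBS arrays, which did not overlap. Its log2 fold change was 1.93 ± 0.32 SE (adjusted p = 0.0612), and it passed without PBS replicate 1 (2.18, adjusted p = 0.0359) and without G-CSF replicate 3 (2.16, adjusted p = 0.0392). As for the neutrophil marker mean, its values were highest in replicates 1 and 2 of the G-CSF group and in replicate 1 of the PBS group, and lowest in G-CSF replicate 3 and PBS replicate 2. Monocyte, erythroid and megakaryocyte marker means were highest in the same arrays of each group. The part of RNA from any of these cell types in the Mgst1 difference was not tested. The antioxidant regulator Nfe2l2 had 0.80 ± 0.32 SE, the glutathione synthesis gene Gclm 0.84 ± 0.38 SE and the nuclear receptor Ppard 0.52 ± 0.21 SE. The groups of these 3 genes overlapped.

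Abcb10 lies in the inner mitochondrial membrane and is needed for heme synthesis in erythroid cells. It was 6.24, 5.99, 5.82 and 6.05 in G-CSF arrays, against 6.24, 5.58, 6.04 and 6.10 in PBS arrays, a log2 fold change of 0.03 ± 0.19 SE (95% interval -0.39 to 0.45). All 4 G-CSF values lay within the range of the PBS values. Of 24 heme genes, 22 were measured and 0 passed (limma). At an unadjusted p under 0.05 (limma), 2 were higher and 0 lower, against 6.07% of all genes higher and 2.94% lower. The median of the 22 was 0.21, and 20 of them were among the 9969 brighter genes, whose median was 0.13. Alas1, the first enzyme of heme synthesis in most cells, had 0.72 ± 0.29 SE, and Alad, the second, 0.45 ± 0.19 SE. Slc25a38, the mitochondrial glycine carrier of heme synthesis, had 0.39 ± 0.18 SE, and the erythroid form of the first enzyme, Alas2, had -0.47 ± 0.24 SE. Erythroid markers, 13 measured of 19, had a median of -0.24.

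Beyond the 9 genes, 41 of 43 other ABC transporter genes were measured, with 0 past the threshold over all genes in either direction (limma). At an unadjusted p under 0.05 (limma), 2 were higher and 1 lower, against 6.07% of all genes higher and 2.94% lower. The 41 had a median log2 fold change of -0.11, against 0.03 for the 9 genes and -0.07 for all genes. Of the 41, 30 were negative, against 11617 of the 19938 genes tested. The groups of 1 higher gene and 2 lower genes of the 41 did not overlap, where 3.37% of all genes were higher and 2.78% lower without overlap. The gap between the groups was smaller for each of them than the 1.43 of Abca4, the range being -0.72 to 1.01. Of these 41 genes, 16 were among the 9969 brighter genes by mean intensity, against 8 of the 9, and over those brighter genes the median of all genes was 0.13.

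The 4 with the lowest p were Abcg3, Abca13, Abcd2 and Abcb6. Abcg3, a rodent relative of Abcg2, was 7.01, 6.87, 6.76 and 7.34 in G-CSF arrays, against 7.47, 8.18, 7.58 and 7.62 in PBS arrays, which did not overlap, with a difference of -0.72 ± 0.21 SE (adjusted p = 0.338). Abca13, a very large A subfamily member, was 6.08, 6.0, 4.65 and 5.02 in G-CSF arrays, against 4.36, 4.21, 4.69 and 4.44 in PBS arrays (1.01 ± 0.31 SE, adjusted p = 0.369). Its 2 high values were those of G-CSF replicates 1 and 2, the arrays with the highest neutrophil marker means (10.16 and 10.02). Within the G-CSF group, monocyte, erythroid and megakaryocyte marker means were highest in these arrays too.

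Abcd2, a peroxisomal carrier of very long-chain fatty acids, had 0.78 ± 0.30 SE, with 6.53 in G-CSF replicate 2 and 5.16 to 5.57 in the other G-CSF arrays, against 4.42 to 5.16 in PBS arrays. Abcb6, a porphyrin transporter, had -0.36 ± 0.16 SE, and its groups did not overlap. Nor did those of Abcf1, named after its values were seen, at 0.33 ± 0.18 SE. For Abcb6 the highest G-CSF value was 4.92 and the lowest PBS value 4.95. Abca13, Abcd2 and Abcb6 were among the dimmer genes. All 3 measured genes of the F subfamily, which have no membrane span and act in translation, had positive values (0.33 to 0.62), as did all 3 of the D subfamily (0.06 to 0.78), and 0 of these 6 passed. Of the other measured genes outside the 9, positive values were seen in 0 of 4 of the G subfamily (-0.72 to -0.14), 1 of 8 of the C subfamily (-0.33 to 0.21), 2 of 8 of the B subfamily (-0.36 to 0.38), 2 of 14 of the A subfamily (-0.26 to 1.01) and not in the 1 E gene (-0.07). Over all genes, 8321 of 19938 values were positive. The F genes and a D gene were among the 9969 brighter genes, whose median was 0.13. Each of these had its lowest value in PBS replicate 3. The other D genes and most of the A and G genes were among the dimmer genes.

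**Figure D4:**
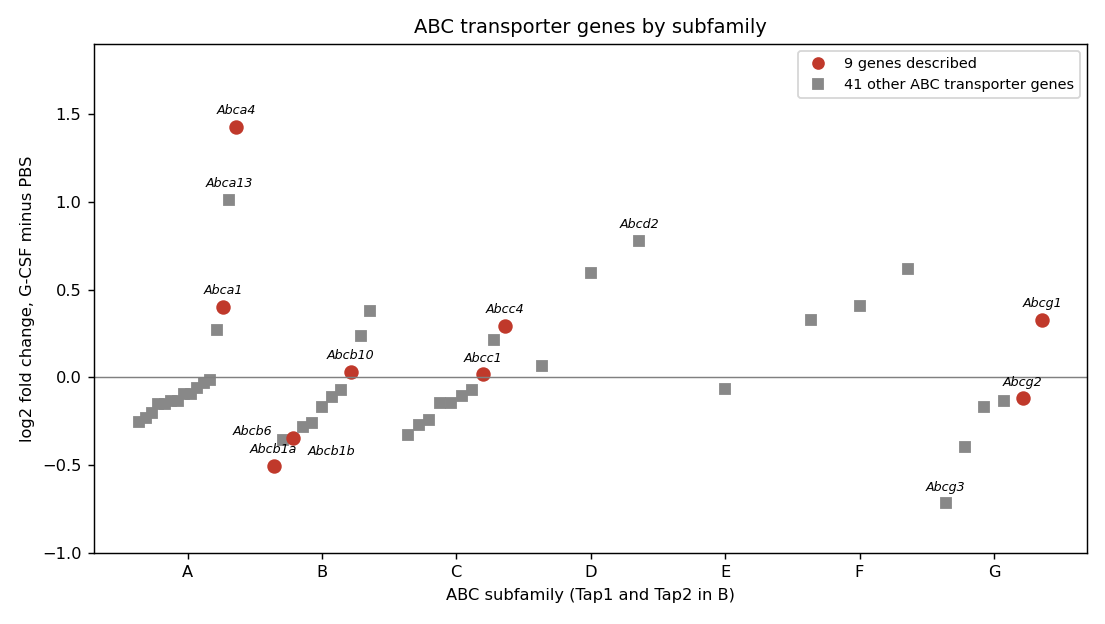
Log2 fold change, G-CSF minus PBS, of the 9 genes (red circles) and 41 other ABC transporter genes (grey squares), in rising order within each subfamily, A to G. Abca4 at 1.43 is above Abca13 at 1.01 and Abcd2 at 0.78, and Abcg3 at -0.72 is the lowest.

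Profiles like those of Abca4 and Abcg2 were sought by the mean absolute difference between log2 values, each gene centred on its own mean over the 8 arrays. Such closeness says only that values ran alike over these 8 arrays, and for Abca4 it mostly follows the 2 groups. The 5 genes nearest to Abca4 differed from it by 0.13 to 0.19 per array. The nearest was the tetraspanin Cd53, followed by Socs3, which restrains signalling by the G-CSF receptor, the C-type lectin Clec4e, Arid5a and Igsf10. The log2 fold change was 1.29 ± 0.21 SE for Cd53, which did not pass (adjusted p = 0.0582, limma), and 1.36 ± 0.18 SE for Socs3, which did (adjusted p = 0.0198, limma). Cd53, like Abca4, was highest in G-CSF replicate 3 within its group (11.14) and in PBS replicate 3 within the other (9.90). The choice by closeness favours such a likeness.

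The 5 genes nearest to Abcg2 differed from it by 0.07 to 0.09 per array. They were Ermp1, Rccd1, Nnat, Eml5 and Wdfy4, with log2 fold changes between -0.25 and 0.04. All 5 were lowest in replicate 1 of the G-CSF group and in replicate 1 of the PBS group, as Abcg2 was. Their choice by closeness to Abcg2 favours such a likeness.

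**Figure D5:**
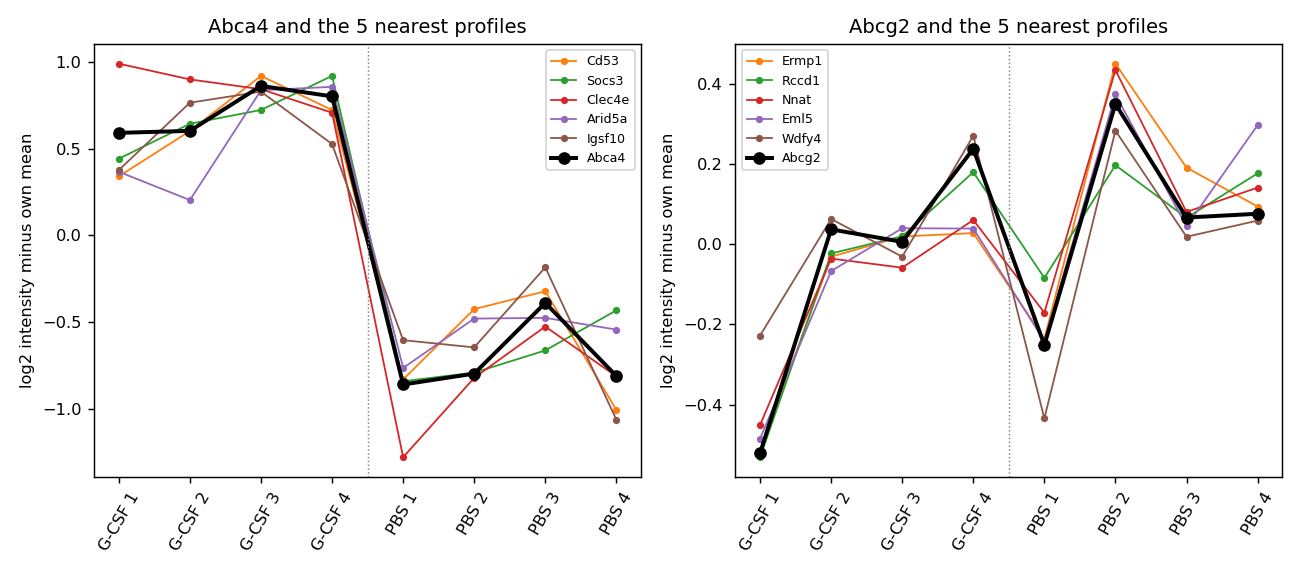
Log2 intensity minus the gene's own mean over 8 arrays, for Abca4 (left) and Abcg2 (right) in black and the 5 nearest genes of each in colour, with G-CSF arrays left of the dotted line and PBS arrays right of it. Lines only join the points of a gene. The Abca4 set is above 0 in all G-CSF arrays and below 0 in all PBS arrays, whereas the Abcg2 set is lowest in replicate 1 of both groups.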

How the data were processed

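The authors deposited 1 linear intensity for each probe set of each array, and RMA is named in the submitters' processing notes. Its software and options and the genome build were not given in the sources used. Intensities ran from 2.15 to 16163 and log2 was taken before each test. Scanner files were not used here, so there was no detection call or scan batch, and precision is limited by how few arrays there are. The platform annotation gave 1 gene symbol to 21789 of 35556 probe sets, several to 1621 and none to 12146. Each gene was read from its probe set of highest mean log2 intensity, and 0 columns were unmapped.

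The 4 G-CSF and 4 PBS arrays were compared by limma's moderated fit (limma 3.58.1, R 4.3.3, functions lmFit and eBayes, 2-sided), with Benjamini-Hochberg adjustment over 19938 genes and a threshold of 0.05. The labels call the samples independent but give no litter or day. The members, lists and the rule for named genes were chosen with earlier results of these data known. The rule names all members, the 4 genes of lowest p in each list, the genes of the sort's surface proteins, and the 5 nearest profiles of Abca4 and Abcg2. The count of other ABC genes leaves out genes without an Abc or Tap symbol.

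The fit was tested on simulated data drawn from the gene means and spreads of this comparison (19938 genes), where 44 of 67 genes changed by 1 on the log2 scale were recovered, 65 of 67 changed by 2 and 66 of 66 changed by 3, with 12 false calls. The simulated noise had the same spread in both groups and no array like PBS replicate 3. More genes were changed than the 19 called here, so recovery in the real arrays can be lower. Alternatives were other moderation, a replicate block, weights for arrays, leaving out dim genes, quantile normalization, median centring, other probe set choices, an added 16, and each array left out. Same-numbered arrays did not deviate together (correlations -0.03 to 0.14, 1 of 4 over 0.1), so the numbers were not taken as pairs.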

Additional observations from a re-analysis of the deposited data

Results flagged for a closer look

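Among 50 named genes, 1 of the 4 arrays of a group lay far from the other 3 in 3 of 100 sets of 4 values, where chance gives about 1 in 20. For Abca4, PBS replicate 3 was at a log2 intensity of 6.01, against 5.54 to 5.60 on the other PBS arrays, and was still below every G-CSF array. For Fdps, PBS replicate 3 was at 5.72, against 6.33 to 6.45. For Ermp1, G-CSF replicate 1 was at 5.91, against 6.39 to 6.45. PBS replicate 3 is the array with the narrow range of intensities. The causes were not tested.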

How the results depend on the processing

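The number of genes called over all genes was 19, and was 40 with array weights (37 higher and 3 lower), 10 after renewed quantile normalization and 0 with all 35556 probe sets (limma, 2743 at an unadjusted p under 0.05). With each array left out in turn it was 3 to 31. The number of transporter genes called among the 9 was 1, always Abca4, except that it was 0 with all probe sets, and 0 to 1 with each array left out, with 0 without G-CSF replicate 2 and without G-CSF replicate 4. Of the pathway genes, 0 of 136 were called, and 0 to 3 with each array left out. These were Mgst1, Tspo and Dhrs4 without PBS replicate 1, and Mgst1 without G-CSF replicate 3. None of the 41 other ABC genes was called under any of the 19 alternatives. With the replicate block, 23 genes were called over all genes and Abca4 kept its call (adjusted p = 0.0335), and 2 of 8 arrays correlated best with the array of their own number. The log2 fold change of Abca4 was 1.19 to 1.55 over the alternatives, the lowest with 16 added before log2, which shrinks differences of dim genes. The signs of Abca1, Abca4, Abcb1a, Abcb1b, Abcc4 and Abcg1 held in all alternatives that gave a value, and those of Abcb10, Abcc1 and Abcg2 changed in 2, 5 and 1 of 19. The causes were not tested.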
